A study of Homo sapiens with 24 samples.

Results

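Replication-dependent histone mRNAs were described in the soluble and insoluble cytoplasm of U2OS cells, a human osteosarcoma line. The members were all genes of the exon count table named H1-1 to H1-5, H2AC, H2BC, H3C or H4C followed by a number, which gave 65 of 60308 genes. They comprise 5 genes of the linker histone H1, 16 of H2A, 17 of H2B, 13 of H3 and 14 of H4, with 54 on chromosome 6 and 11 on chromosome 1. Ctrl cells received vehicle, DMSO at 0.12%, over 2 h. The NaAsO2 group was stressed with a dose of 500 µM lasting 60 min. RK-33 was used at 6 µM with a pre-treatment of 1 h, on its own in the RK-33 group and followed by the same arsenite dose in the Combo group. By the study's account, the 2 h of vehicle matched the time with RK-33 in treated samples. NaAsO2 is an oxidative stressor that makes cells assemble stress granules, and RK-33 is an inhibitor of the RNA helicase DDX3. After the nuclei were spun out, a faster spin split each of 12 lysates into a soluble and an insoluble fraction, and each of the 8 groups of treatment and fraction had 3 libraries. The pellet is enriched for RNP granules and was not purified further, and all 24 libraries came from 1 cell line.

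Histone mRNAs of this kind are made in S phase, when new DNA has to be packed into nucleosomes. Their genes have no introns in the coding part, and the mRNAs end in a conserved hairpin in place of a poly(A) tail. SLBP, the stem-loop binding protein, holds that hairpin and takes part in processing, export, translation and decay of the mRNA. H2A, H2B, H3 and H4 form the nucleosome core, and H1 binds the DNA between nucleosomes.

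The hairpin was searched for in the last 100 bases of each gene's main transcript as 6 paired bases that begin with GG around a loop of 4 bases that begins with T, on the transcript's strand. It was found in 62 of 65 members (95.4%) and in 10 of 19968 other protein-coding genes (0.0501%). The 3 members without a match were H2BC21, H2AC11 and H2AC15. The main transcript of H2BC21 is 2224 bases long, against a median of 487 for the members. A hairpin further from its end was not searched for. One sequence of the 16-base core was shared by 37 members of H1, H2A, H2B and H3, and a second by 8 members of the same classes. Of the 14 H4 genes, 9 had one core and 4 another, both with a different stem from the other classes. The stretches below show these cores and the hairpins of members whose counts are described further on. They are read 5′ to 3′ on the gene's strand from the GRCh38 genome, with 5 flanking bases where the transcript extends so far and the hairpin in capitals.
H1-2, chr6:26055740-26055764, minus strand: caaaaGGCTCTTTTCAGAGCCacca
H2AC6, chr6:26124664-26124689, plus strand: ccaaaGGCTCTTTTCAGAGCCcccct
H3C2, chr6:26031592-26031617, minus strand: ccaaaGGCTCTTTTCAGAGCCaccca
H2BC6, chr6:26184205-26184230, plus strand: ccaaaGGCTCTTTTCAGAGCCactca
H2BC12, chr6:27146361-27146386, minus strand: ccaaaGGCTCTTTTAAGAGCCactta
H2BC11, chr6:27132316-27132341, minus strand: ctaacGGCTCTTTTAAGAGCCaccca
H2AC20, chr1:149887386-149887411, plus strand: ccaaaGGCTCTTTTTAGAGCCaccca
H3C6, chr6:26225591-26225616, plus strand: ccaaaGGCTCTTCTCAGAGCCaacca
H4C2, chr6:26026896-26026921, minus strand: ccaatGGCCCTTTTCAGGGCCgccca
H4C14, chr1:149833027-149833052, plus strand: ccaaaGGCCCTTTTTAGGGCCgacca

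The members are short, with a median annotated length of 497 bases (386 to 4265), against 4745 for the genes that were tested. All 65 main transcripts have 1 exon, and 12 members also have longer annotated forms with further exons. A gene was tested if it reached 1 CPM, a count scaled to a common library total, on average over the 24 libraries, which held for 41 members: 3 of H1, 12 of H2A, 10 of H2B, 5 of H3 and 11 of H4. Of the 24 others, 23 had at most 100 counts over all libraries together, and H3C7, H4C6 and H4C7 had 0. H3C15, with 188 counts and 0.691 CPM, lay just outside the limit, and H2AC7, with 316 counts and 1.17 CPM, just inside. The limit used the mean of both fractions, and 4 of the members that passed it had under 1 CPM on average in the insoluble libraries, while 30 had at least 10 CPM over all libraries.

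Members with few counts lay side by side on chromosome 6. A run of 7 neighbours from H1-3 to H2BC10 (chr6:26234212-26273412) had 17 counts in all, and a run from H2AC16 to H2BC17 (chr6:27865317-27893891), also of 7, had 134. A further 3 pairs of neighbours (H2AC1 and H2BC1, H2BC3 and H3C3, H2BC8 and H2AC8) had 76 to 79 counts each. Not 1 of the 100-base windows of these 20 members occurs elsewhere in the genome, but H2AC17 and H3C12 among them overlap each other (71.0% and 40.3% of their exon bases). For the 6 members H4C14, H4C15, H3C14, H3C15, H2AC18 and H2AC19, all windows occur elsewhere, and for 5 others the share is 50.3% for H2BC18, 58.8% for H2AC13, 61.8% for H2AC14, 90.7% for H4C11 and 91.3% for H4C12. The counts of these 11 members are uncertain, since only uniquely aligned reads were counted. Exons of another gene also cover part of 7 members, most of all H3C4 (96.6%) and H2AC7 (85.3%), both covered by ENSG00000282988.

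**Figure D1:**
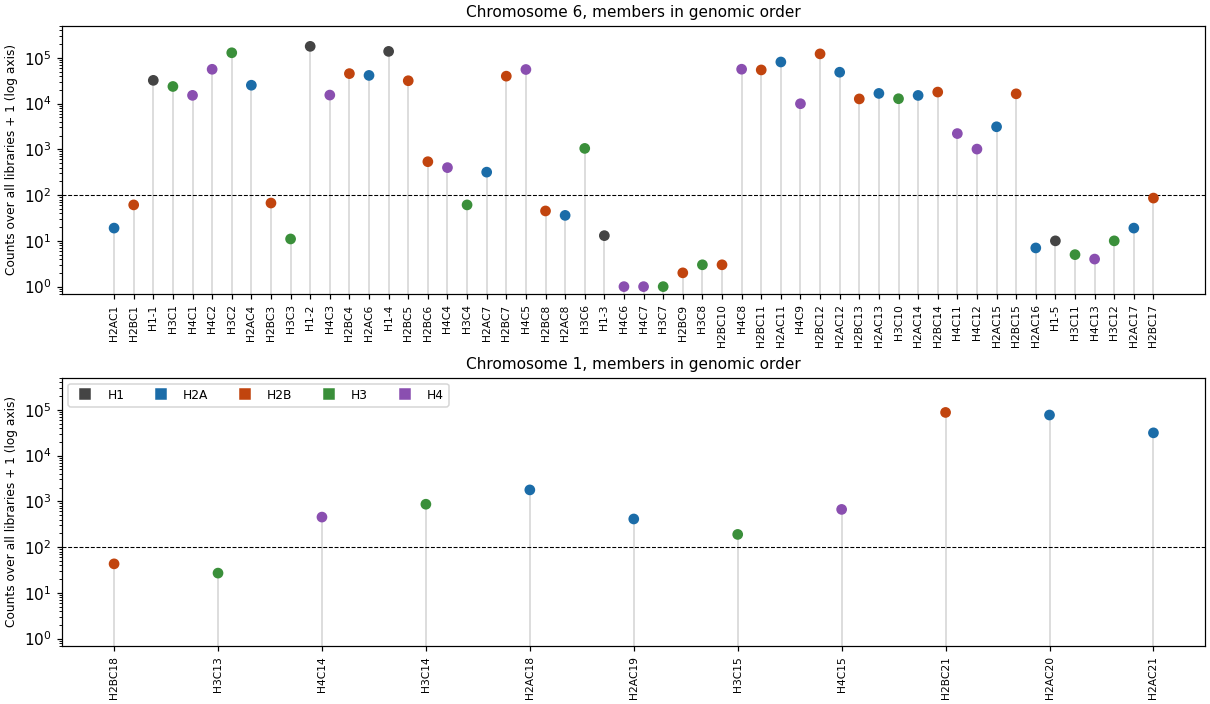
Exon counts of the 65 members summed over 24 libraries, plus 1, on a log axis, with the members of chromosome 6 (top) and chromosome 1 (bottom) in genomic order and coloured by histone class. The dashed line marks 100 counts, and the 7 neighbours from H1-3 to H2BC10 and the 7 from H2AC16 to H2BC17 lie below it.

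A few genes carried much of the histone RNA. H1-2, H1-4, H3C2 and H2BC12 together held 37.82% of 1493917 histone counts. Per length, the highest levels in the soluble fraction of Ctrl were 1365 ± 284 RPKM (SD, n = 3) for H3C2, 1277 ± 231 for H1-2 and 1221 ± 221 for H2BC12, which do not differ beyond their spread. They were followed by H1-4 (905 ± 136 RPKM), H2AC11 (890 ± 235) and H2AC20 (867 ± 230). The leading H4 genes by RPKM, H4C2 (633 ± 135) and H4C5 (632 ± 113), were near equal. H4C8 had as many counts (56164, against 55978 and 55371), but its annotated length is 2163 bases, against 409 for its main transcript. RPKM here divides scaled counts by the annotated length. That length includes longer forms for the 12 members with further exons and for H3C10 (1250 bases, main transcript 486). RPKM so understates, for example, H2BC11 at 271 ± 54.6.

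Each library held 8627294 to 15376554 exon counts. RUNX2, SPARC, COL1A1, VIM, FN1 and CD44 of the osteosarcoma or mesenchymal list were detected in every library, with RUNX2, a regulator of bone formation, at 46.1 to 89.4 CPM, while COL1A2 (at most 1.84 CPM) and TWIST1 (at most 0.232) were near 0. Of the markers of other cell types, KRT18 reached 305 CPM, EPCAM 7.91 and CDH1 7.10, while PTPRC, PECAM1, GFAP and ALB stayed at or under 2.90. TERT was at most 0.130 CPM.

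Replicate 3 of 3 groups stood apart in which histones it held. The ratio of H4 to H2B counts was 3.64 in replicate 3 of the NaAsO2 insoluble fraction, 0.870 in that of the Combo insoluble fraction and 0.737 in that of the RK-33 soluble fraction, against 0.374 to 0.523 in the other 21 libraries. In the first of them, H4 made up 33.9% and H2B 9.29% of histone counts. Over 32 members with a mean of at least 5 CPM, set against the mean of the other replicates, H2B members there were at a median of -1.21 (log2) with 1 of 9 higher, while H4 members were at 1.74 with 6 of 7 higher, from -2.33 for H2BC14 to 3.12 for H4C2. The members took nearly the same order in the other libraries set apart (Pearson r = 0.944 and Spearman rho = 0.945 with the Combo library, r = 0.916 and rho = 0.918 with the RK-33 library, over the same 32 members, which were all measured in the same libraries). The 3 libraries were set apart by this ratio, so the class medians and part of the shared order follow from that choice and are no separate support. RN7SL1, the RNA of the signal recognition particle, was also highest in its group in each of these libraries. It held 5.79% of exon counts in the NaAsO2 library, against 0.426% to 1.23% in the other insoluble libraries, and 15.5% in the RK-33 library, against 7.51% to 13.1% in the other soluble libraries. Its part in the results was not tested, and where leaving out these 3 libraries ends or adds a call of a histone member in exon counts the values without them are given beside it.

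**Figure D2:**
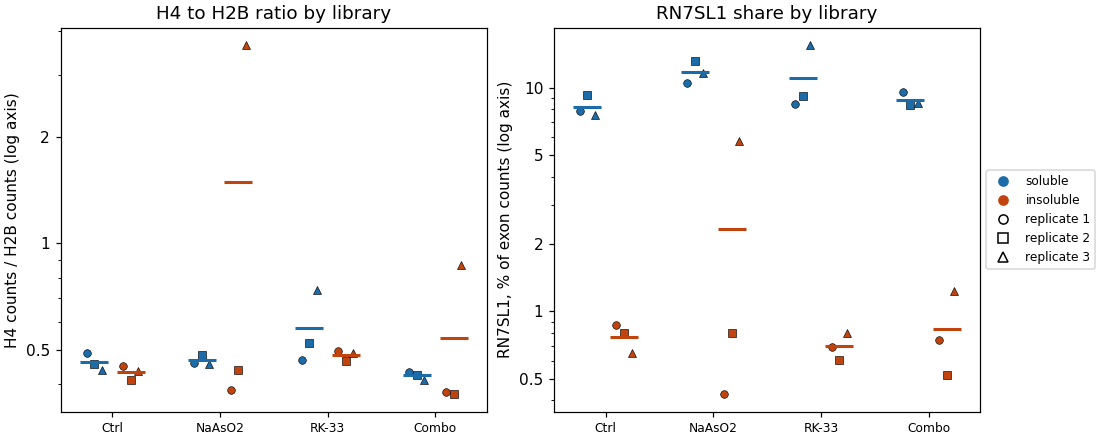
Ratio of H4 to H2B counts (left) and RN7SL1 as a percent of exon counts (right) in each of the 24 libraries, both on log axes, by treatment, with fraction by colour, replicate by shape and a line at each mean. Replicate 3 of the NaAsO2 insoluble fraction lies at a ratio of 3.64, far above the other libraries, and replicate 3 of the Combo insoluble and RK-33 soluble fractions lie next, at 0.870 and 0.737.

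The first question was how histone mRNAs divide between the soluble cytoplasm and the pellet. In all 12 lysates the histone share of exon counts was higher in the soluble fraction, at 0.712% to 1.13%, than in the insoluble fraction, at 0.194% to 0.303%, with no overlap. Taken by replicate number, the soluble share was 2.94 to 3.54 times the insoluble share in Ctrl, 3.72 to 5.09 times after NaAsO2, 3.36 to 4.05 times after RK-33 and 3.04 to 3.14 times in Combo. These are shares of all counted RNA of a fraction, and both fractions of a lysate come from the same cells. Between treatments, a change in the share of cells in S phase and a change in histone mRNA per cell cannot be told apart in bulk samples.

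A member was called when its Benjamini-Hochberg adjusted p over all 17666 genes tested was under 0.05 and its absolute log2 fold change at least 1, in edgeR's quasi-likelihood test. In Ctrl, 38 of 41 members were called lower in the insoluble fraction, where 10.7% of all genes tested were, and 0 were called higher, against 11.8% of all genes. After NaAsO2, 39 were called lower (16% of all genes) and 0 higher (14.6%). After RK-33, 39 were lower (15.2%) and 0 higher (15.5%), and in Combo 38 were lower (13.1%) and 0 higher (10.0%). At an adjusted p under 0.05 without a fold limit, the count of higher members also stayed at 0 in each treatment, and all 41 estimates were negative in each. The median log2 difference of the members was -1.60 in Ctrl, -2.22 after NaAsO2, -1.81 after RK-33 and -1.58 in Combo, while that of all genes lay between -0.03 and 0.03. Among the 30 members with at least 10 CPM, the medians were -1.67, -2.28, -1.97 and -1.58.

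In Ctrl, the class medians lay between -1.48 for H1 and -1.65 for H2A, and all 3 H1 and all 12 H2A members were called lower in every treatment. After NaAsO2 the class medians lay at -1.93 for H4 and -2.36 for H2B, and this order turned without the 3 libraries set apart, to -2.26 for H4 and -1.95 for H2B.

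**Figure D3:**
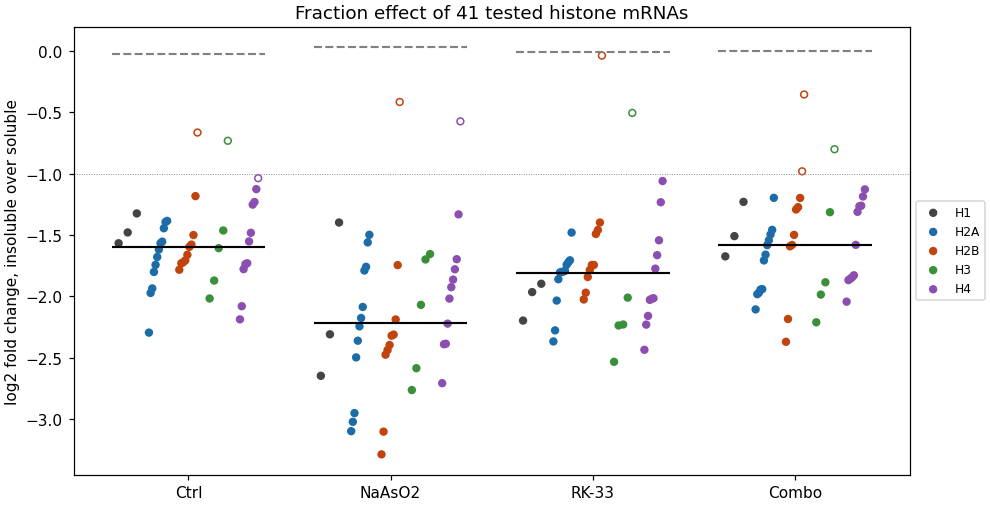
Log2 fold change between the insoluble and soluble fraction for each of the 41 tested histone members in the 4 treatments, coloured by class, with negative values lower in the insoluble fraction, open points for members that were not called, black lines at the members' median and dashed lines at the median of all genes. All points lie below 0, and the NaAsO2 points reach lowest, to -3.29 for H2BC4.

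H2BC12, an H2B gene, stood at 529, 729 and 555 CPM in the soluble and 193, 233 and 173 CPM in the insoluble libraries of Ctrl, a log2 difference of -1.60 (SE 0.15, adjusted p = 2.79e-08). After NaAsO2 the soluble libraries held 782, 859 and 953 CPM and the insoluble ones 154, 170 and 169, a difference of -2.40 (SE 0.16, adjusted p = 2.24e-11). In both treatments the lowest soluble library lay far above the highest insoluble one. In RK-33, the values were 556, 657 and 821 against 169, 154 and 176 CPM (-2.03, SE 0.16), and in Combo 797, 632 and 596 against 231, 220 and 221 CPM (-1.59, SE 0.15). H2BC12 was thus among the 3 members with the smallest adjusted p in every treatment.

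H3C1, an H3 gene, was the other member with that rank throughout. It stood at 122, 178 and 137 CPM in the soluble and 40.5, 43.9 and 35.1 CPM in the insoluble libraries of Ctrl (-1.87, SE 0.17, adjusted p = 9.53e-09). After NaAsO2 it stood at 187, 179 and 226 against 33.2, 33.8 and 31.4 CPM (-2.59, SE 0.17), a 6.00-fold difference. The groups did not overlap, and the difference was -2.01 after RK-33 and -1.89 in Combo.

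Among linker histones, H1-2 was the member with most counts. Its soluble libraries held 806, 1130 and 869 CPM in Ctrl and 1320, 1290 and 1480 after NaAsO2. Its insoluble libraries held 325, 432 and 361 CPM in Ctrl and 216, 281 and 328 after NaAsO2. The fraction difference was thus -1.33 (SE 0.17) in Ctrl and -2.31 (SE 0.17) after NaAsO2, with no overlap between fractions in either. H1-1 differed by -1.57 in Ctrl, -2.65 after NaAsO2, -2.20 after RK-33 and -1.68 in Combo (SE 0.17 to 0.18), and H1-4 by as little as -1.23 in Combo.

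H3C2 had the largest difference among members with at least 10 CPM after RK-33, at -2.53 (SE 0.24). It held 588, 699 and 952 CPM in the soluble and 141, 104 and 141 CPM in the insoluble RK-33 libraries. In Ctrl it held 609, 865 and 619 against 167, 204 and 146 CPM (-2.02, SE 0.24). The fractions did not overlap in either treatment. H2AC20 and H2AC4, both H2A genes, had the smallest adjusted p after H3C1 and H2BC12 in Combo and Ctrl. H2AC20 stood at 498, 386 and 383 against 135, 91.0 and 68.0 CPM in Combo (-2.11, SE 0.21), and H2AC4 at 105, 170 and 124 against 32.8, 39.9 and 29 CPM in Ctrl (-1.97, SE 0.20).

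**Figure D4:**
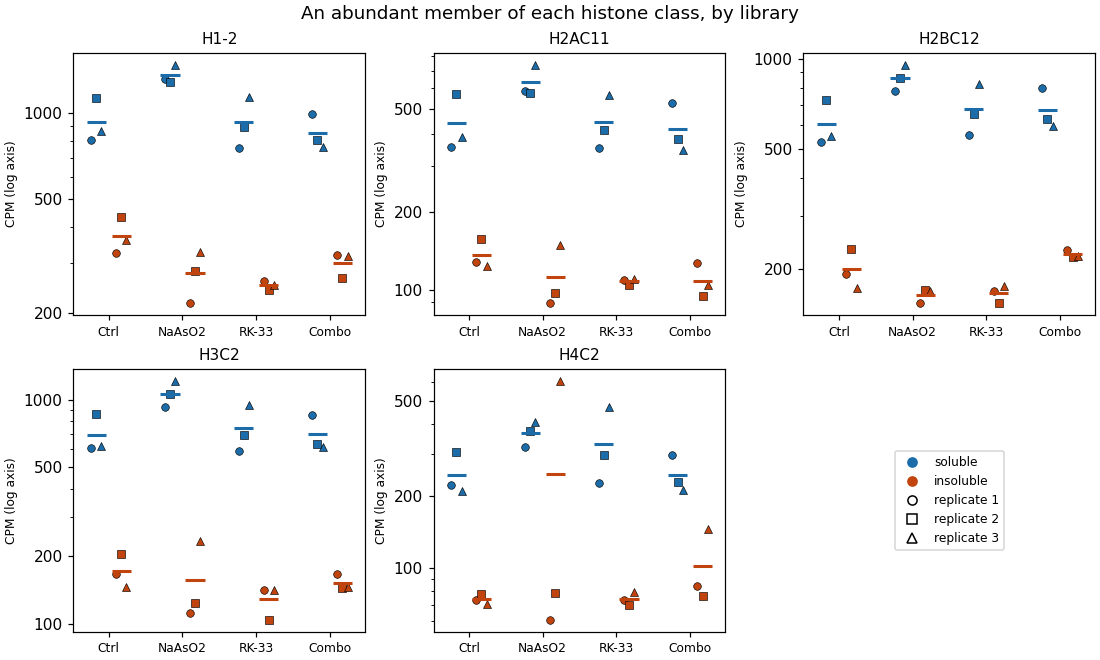
CPM (log axis) of 1 abundant member of each histone class in every library, by treatment, with fraction by colour, replicate by shape and a line at each mean. Soluble libraries lie above insoluble ones for H1-2, H2AC11, H2BC12 and H3C2, while H4C2 has 1 insoluble NaAsO2 library at 604 CPM, above all soluble ones.

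The members that were not called lower are few. H2BC6 differed by -0.67 in Ctrl, -0.42 after NaAsO2, -0.04 after RK-33 and -0.36 in Combo (SE 0.30 to 0.46, adjusted p from 0.233 to 0.940), at about 1 CPM outside Combo. Its annotated exons are 2585 bases long, against 470 for the main transcript, and 28.2% of them overlap ENSG00000283064. H3C6, also with longer annotated forms, differed by -0.73 in Ctrl (SE 0.28, adjusted p = 0.0347), -0.51 after RK-33 (adjusted p = 0.133) and -0.80 in Combo (adjusted p = 0.0119). It was called lower after NaAsO2 (-1.66, SE 0.28), with 5.08, 7.38 and 5.97 against 1.92, 1.83 and 2.13 CPM. H4C4 in Ctrl (-1.04, adjusted p = 0.0600) and H2BC15 in Combo (-0.98, adjusted p = 1.92e-05) each missed 1 limit.

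H4C2 was not called after NaAsO2 (-0.57, SE 0.51, adjusted p = 0.346). Its soluble libraries held 320, 374 and 408 CPM and its insoluble ones 60.7, 78.3 and 604 CPM, so that replicate 3, the library with the H4 to H2B ratio of 3.64, lay above the soluble libraries while the others lay far below. Without the 3 libraries set apart, 40 members were called lower after NaAsO2, 39 after RK-33 and 36 in Combo, with medians of -2.28, -1.77 and -1.62. H4C2 was then called after NaAsO2 (-2.34, SE 0.14), while H2BC5 and H2BC14 fell just under the fold limit in Combo, both at -0.98 (-1.27 and -1.20 with them).

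The second question was whether a treatment changed histone mRNA levels within a fraction. In the soluble fraction, 0 of 41 members were called between NaAsO2 and Ctrl (1.68% of all genes were called). At an adjusted p under 0.05 alone, 4 members were higher and 0 lower, where 13.3% of all genes passed in either direction. These were H2BC15 (0.68, SE 0.16, adjusted p = 0.00599), H2BC12 (0.52, SE 0.15, adjusted p = 0.0255), H1-2 (0.54, SE 0.17, adjusted p = 0.0332) and H2AC12 (0.56, SE 0.19, adjusted p = 0.0475). DESeq2 also called 0. The median over 41 members was 0.56 with 39 estimates positive, beside 0.03 over all genes, and 23 members had an unadjusted p under 0.05. H2BC12 rose from 529 to 729 CPM in Ctrl to 782 to 953 CPM after NaAsO2, with no overlap.

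In the insoluble fraction, 1 member was called between NaAsO2 and Ctrl (14% of all genes), and by adjusted p alone 2 were higher and 7 lower (43.1% of all genes passed). The called member was H4C2, higher by 1.74 (SE 0.53, adjusted p = 0.0113), with 73.7, 77.5 and 70.8 CPM in Ctrl and the 604 CPM library noted above. Without that library its difference was -0.02 (adjusted p = 0.953). The 7 lower members were H2AC14 (-0.94), H2BC4 (-0.92), H4C11 (-0.83), H2BC11 (-0.82), H1-1 (-0.77), H2AC20 (-0.59) and H1-2 (-0.44), with adjusted p from 0.00130 to 0.0382. H1-1 stood at 61.5, 74.2 and 63.3 CPM in Ctrl and 31.9, 38.8 and 46.7 after NaAsO2, without overlap. The second higher member was H2AC21 (0.95, SE 0.38, adjusted p = 0.0487), at 33.1, 38.3 and 164 CPM after NaAsO2, the highest again in replicate 3, against 37.6, 48.3 and 34.4 in Ctrl. Without the 3 libraries set apart its difference was -0.10 (adjusted p = 0.601). By adjusted p alone, 2 other members were then higher, H2BC5 (0.48, adjusted p = 0.00217) and H2BC14 (0.47, adjusted p = 0.00667), and 11 were lower, with 50.7% of all genes passing. The 11 comprised the 7 lower members above, with H2BC11 at -0.36 (adjusted p = 0.0309), and H3C2, H1-4, H2AC11 and H3C10.

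RK-33 against Ctrl gave 0 called members in the soluble fraction (0.515% of all genes), with 2 at an unadjusted p under 0.05, and 0 in the insoluble fraction (1.86%), with 5. In the insoluble fraction 3 members were lower by adjusted p alone (13.9% of all genes passed). These were H1-1 (-0.93, SE 0.17, adjusted p = 0.000758), H1-2 (-0.58, SE 0.17, adjusted p = 0.0227) and H3C1 (-0.52, SE 0.17, adjusted p = 0.0401). H1-1 stood at 38.3, 35.0 and 31.4 CPM after RK-33, below all Ctrl libraries. DESeq2 also called 0 members in both fractions.

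Combo against NaAsO2 gave 1 called member in the soluble fraction (2.43% of all genes) and 3 in the insoluble fraction (3.93%), all higher. H2BC6 was called in both. Its soluble libraries held 1.02, 1.20 and 1.29 CPM after NaAsO2 and 4.38, 3.53 and 7.01 in Combo (2.07, SE 0.35, adjusted p = 0.000688). Its insoluble libraries held 0.925, 0.351 and 1.54 CPM after NaAsO2 and 4.20, 3.08 and 4.34 in Combo (2.13, SE 0.36, adjusted p = 0.000626). It was also the only called member between Combo and RK-33, by 2.10 (SE 0.34) in the soluble fraction, where 2.02% of all genes were called, and by 1.78 (SE 0.35) in the insoluble fraction (2.62%). In each of these comparisons the groups did not overlap, at a level of a few CPM. Where H2BC6 was the only called member, the count of 1 among 41 lay near the share of all genes.

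The other 2 members called in the insoluble fraction were H4 genes of low level. H4C4 went from 0.356, 0.491 and 0.237 CPM after NaAsO2 to 0.900, 1.38 and 1.65 in Combo (1.77, SE 0.48, adjusted p = 0.0180), and H4C14 from 0.427, 0.772 and 0.237 to 1.20, 1.38 and 1.38 (1.36, SE 0.41, adjusted p = 0.0308). Both lost the call without the 3 libraries set apart (1.35, adjusted p = 0.0720, and 1.03, adjusted p = 0.109), and H4C14 shares its windows with H4C15. H3C6 was then called in their place (1.04, adjusted p = 0.0129), beside H2BC6 (2.44), where 4.85% of all genes were called. In the soluble fraction, 4 members were lower in Combo than after NaAsO2 by adjusted p alone (6.46% of all genes passed). They were H3C1 (-0.75, SE 0.16), H1-2 (-0.67, SE 0.17), H1-1 (-0.59, SE 0.17) and H2BC15 (-0.59, SE 0.16), with adjusted p from 0.00566 to 0.0351. The median over all 41 was -0.56, beside -0.04 over all genes. The comparisons of NaAsO2 with Ctrl and of Combo with NaAsO2 share the NaAsO2 libraries.

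The third question was whether the fraction difference itself differed between treatments, tested as an interaction. Between NaAsO2 and Ctrl, 6 members had a fraction difference that was larger after NaAsO2 (9.56% of all genes were called in either direction). These were H2BC4 by -1.50 (SE 0.36, adjusted p = 0.00393), H2AC14 by -1.47 (SE 0.29, adjusted p = 0.000877), H2BC11 by -1.40 (SE 0.42, adjusted p = 0.0211), H2AC20 by -1.15 (SE 0.29, adjusted p = 0.00568), H4C11 by -1.14 (SE 0.35, adjusted p = 0.0240) and H1-1 by -1.08 (SE 0.24, adjusted p = 0.00227). By adjusted p alone 10 members passed, all with the larger difference after NaAsO2 (22.3% of all genes passed), and the 4 others were H1-2 (-0.98), H2AC12 (-0.86), H2BC12 (-0.80) and H3C1 (-0.71). The median was -0.72, beside -0.02 over all genes. The counts of H4C11 and H2AC14 are uncertain, since 90.7% and 61.8% of their windows occur elsewhere. Without the 3 libraries set apart, H2BC11 (-0.90), H2AC20 (-0.96) and H4C11 (-0.93) lost the call to the fold limit, H2BC4 (-1.16), H2AC14 (-1.24) and H1-1 (-1.12) kept it, and H3C10 (-1.36), H2AC18 (-1.25), H3C2 (-1.05) and H1-2 (-1.02) were called as well. The counts of H2AC18 are uncertain too. In all, 7 members were then called (8.41% of all genes in either direction) and 25 passed by adjusted p alone (36.9% of all genes). All 41 estimates were negative and the median was -0.66. Leaving out 1 library at a time gave 2 to 9 called members, with 2 without Ctrl soluble replicate 1, Ctrl insoluble replicate 2 or NaAsO2 soluble replicate 3.

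H2BC4 shows both sides of this difference. Its soluble libraries held 196, 350 and 240 CPM in Ctrl and 384, 346 and 447 after NaAsO2, which overlap by 1 library. Its insoluble libraries held 68.8, 92.7 and 66.7 CPM in Ctrl and 45.5, 49.4 and 24.8 after NaAsO2, which do not overlap. H2AC14 likewise stood at 25.7, 33.3 and 27.5 CPM in the insoluble fraction of Ctrl and 15.4, 17.5 and 11.9 after NaAsO2, and at 70.9, 108 and 75.1 against 111, 112 and 144 CPM in the soluble fraction. For H2AC14 the groups overlap in neither fraction.

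Between RK-33 and Ctrl, 0 members were called by this test (0.436% of all genes), with 2 at an unadjusted p under 0.05 and 0 called by DESeq2. Between Combo and NaAsO2, 0 were called (0.142% of all genes) and 0 passed by adjusted p alone, with 16 at an unadjusted p under 0.05 and 1 called by DESeq2. Their median was 0.63, and 37 of 41 estimates were positive, meaning a smaller fraction difference in Combo. Without the 3 libraries set apart, 2 were called, H1-1 (1.02) and H2AC14 (1.01), where 0.968% of all genes were called. By adjusted p alone 29 passed (9.48% of all genes), with 40 of 41 positive and a median of 0.75. That count therefore depends on libraries set apart, and both comparisons again share the NaAsO2 libraries.

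A separate readout was the intron table, in which 12 members have entries because of their longer annotated forms. For 9 of them the intron stretches lie downstream of the hairpin, beyond the end of the mature histone mRNA, and for H2BC6, H3C6 and H3C12 they lie upstream of it. Intron counts there are counts of RNA past the hairpin, or between it and a distant start, and the counting used no strand. In H2AC6, an H2A gene on the plus strand, the stretch starts 60 bases after the hairpin shown above (chr6:26124750-26138053), and in H2BC11, an H2B gene on the minus strand, it adjoins the hairpin (chr6:27126463-27132315). A model of the same form was fitted to the intron counts of 17406 genes, 10 of the members among them.

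Counts downstream of several hairpins were higher after RK-33. In the soluble fraction, 4 of 10 members were called higher than in Ctrl, where 0.620% of all genes with intron counts were called higher, and in the insoluble fraction 5 of 10 (0.689%). H2AC6 rose from 55.8, 54.4 and 59.0 to 305, 324 and 383 intron CPM in the soluble fraction (2.55, SE 0.20, adjusted p = 7.48e-10). In the insoluble fraction it rose from 26.9, 24.6 and 26.8 to 131, 140 and 169 intron CPM (2.58, SE 0.20, adjusted p = 5.54e-10). The groups lay far apart in both fractions. H2BC11 rose from 83.0, 81.0 and 73.2 to 223, 257 and 255 intron CPM in the soluble fraction (1.60, SE 0.14) and from 34.2, 36.1 and 33.1 to 88.3, 85.3 and 113 in the insoluble fraction (1.56, SE 0.14). H2BC4 rose by 1.27 (SE 0.20) and 1.63 (SE 0.20) and H4C8, an H4 gene, by 1.32 (SE 0.23) and 1.22 (SE 0.25) in the soluble and insoluble fraction, and H2BC5 by 1.78 (SE 0.26) in the insoluble fraction. The adjusted p of the calls other than those of H2AC6 ranged from 3.20e-09 to 0.00364.

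The exon counts of the same genes gave no call in RK-33 against Ctrl. H2AC6 had an exon difference of 0.47 (SE 0.25, adjusted p = 0.348) in the soluble and 0.33 (SE 0.25, adjusted p = 0.456) in the insoluble fraction. Those of H2BC11, H2BC4, H4C8 and H2BC5 lay between -0.47 and 0.41. Over all libraries the intron counts of H2AC6 came to 23.3% of its exon counts, those of H2BC11 to 17% and those of H2BC4 to 5.24%. H2BC15 (0.42 and 0.32) and H2BC6 (0.04 and 0.64) of the tested members with introns did not pass in either fraction, nor did H2BC18, H4C14 and H4C15.

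**Figure D5:**
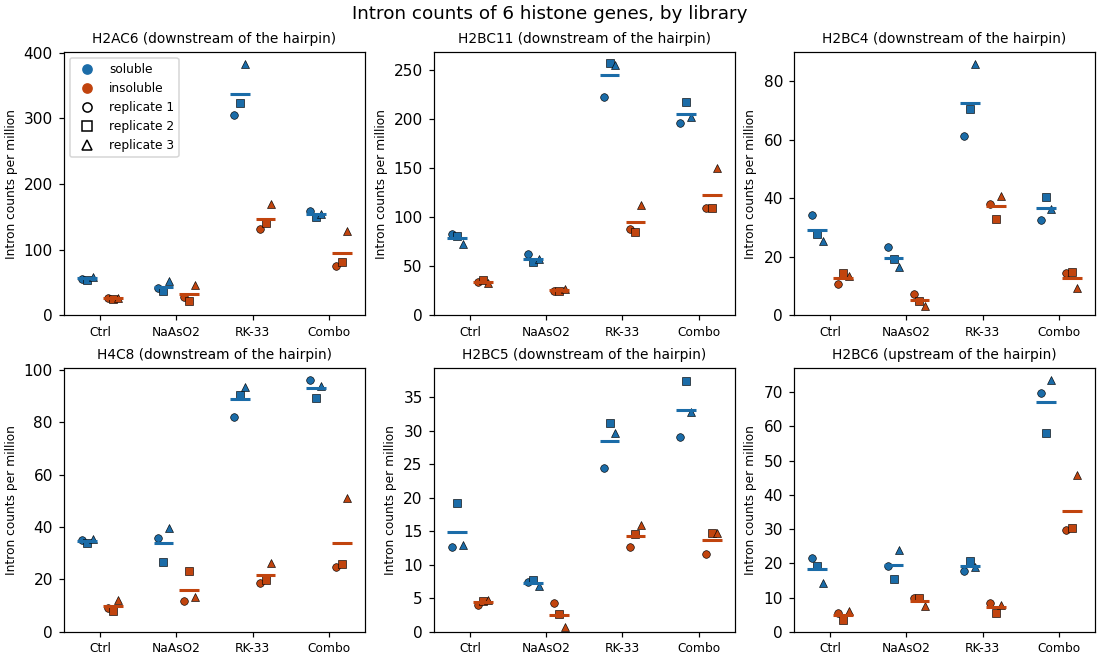
Intron CPM (linear axes from 0, each panel with its own range) of 6 histone genes in every library, by treatment, with fraction by colour, replicate by shape and a line at each mean. H2AC6 reaches 305 to 383 in the RK-33 soluble libraries against 54.4 to 59.0 in Ctrl, while H2BC6 lies at 58.1 to 73.5 in the Combo soluble libraries against 17.7 to 20.8 after RK-33.

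With arsenite present, more members were called higher with RK-33. The share of all genes called higher was also larger than without arsenite (0.620% and 0.689%). Combo against NaAsO2 gave 8 of 10 members called higher in the soluble fraction (5.37% of all genes with intron counts) and 7 in the insoluble fraction (6.34%). H2AC6 rose from 41.3, 36.3 and 51.8 to 159, 149 and 154 intron CPM in the soluble fraction (1.96, SE 0.21), H2BC11 from 62.3, 54.2 and 57.1 to 196, 218 and 202 (1.95, SE 0.14). H2BC5 rose by 2.27 (SE 0.27) and 2.42 (SE 0.30) and H2BC15 by 1.78 (SE 0.23) and 1.88 (SE 0.24) in the soluble and insoluble fraction. The span of H2BC5 also holds ENSG00000283064 and LARP1P1, and the counting could not tell them apart from it by strand.

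After NaAsO2 alone, 0 of these members were called against Ctrl in the soluble fraction in edgeR's test (1.59% of all genes were called lower), with 3 at an unadjusted p under 0.05 and 0 called by DESeq2, and 1, H2BC4, was called lower in the insoluble fraction (3.83%), at -1.27 (SE 0.26), with 7.30, 5.03 and 3.30 against 10.6, 14.4 and 13.5 intron CPM. H2BC6, whose introns lie upstream of the hairpin, was the 1 member called higher in Combo than in RK-33, by 2.01 (SE 0.21) in the soluble fraction (8.81% of all genes) and 2.26 (SE 0.22) in the insoluble fraction (9.73%). A count of 1 among 10 members lay near both shares. The soluble libraries of H2BC6 held 17.7, 20.8 and 18.9 intron CPM after RK-33 and 69.8, 58.1 and 73.5 in Combo, and 21.6, 19.2 and 14.1 in Ctrl. H2BC6 was thus higher in Combo on both exon and intron counts, with no overlap with RK-33. Over all libraries its intron counts came to 360% of its exon counts, and neither was counted by strand. Agreement of the exon and intron counts therefore does not show a change in the mature histone mRNA. H2BC4 was lower in Combo than in RK-33 in the insoluble fraction, by -1.52 (SE 0.20). The share of all genes called lower there is not given here, so this is not read as a trait of the members.

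A list of histone genes outside the members, taken as replication-independent, was compared. Of 12 genes, 11 were tested, and 4 were called lower in the insoluble fraction in Ctrl (10.7% of all genes), 5 after NaAsO2 (16%), 8 after RK-33 (15.2%) and 5 in Combo (13.1%), with 0 higher and medians of -0.92, -0.72, -1.13 and -0.91. H2AZ1, an H2A variant, differed by -1.57 (SE 0.14) in Ctrl and -2.23 (SE 0.14) after NaAsO2, and H3-3A, which encodes H3.3, by -1.51 (SE 0.18) and -2.45 (SE 0.19). H3-3B encodes the same protein and differed by -0.92 (SE 0.17) and -0.55 (SE 0.17). H2AX, which marks DNA breaks when phosphorylated, differed by -1.11 (SE 0.19) and -0.53 (SE 0.19). H2AX was also higher in the insoluble fraction after NaAsO2 than in Ctrl, by 1.09 (SE 0.19, adjusted p = 0.000158), with 192, 202 and 390 against 127, 126 and 115 CPM. The highest value is again that of replicate 3, and without the 3 libraries set apart the difference was 0.76 (adjusted p = 2.08e-08), under the fold limit.

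The 23 genes that act in histone mRNA processing, export, translation and decay were all tested. In Ctrl 2 were called higher and 2 lower in the insoluble fraction, beside 11.8% and 10.7% of all genes. After NaAsO2 there were 3 and 4 (14.6% and 16% of all genes), after RK-33 2 and 2 (15.5% and 15.2%) and in Combo 2 and 2 (10.0% and 13.1%), so that the list lay near or under the shares of all genes. SLBP mRNA was higher in the insoluble fraction after NaAsO2 than in Ctrl, at 52.7, 47.2 and 130 against 25.9, 31.5 and 33.5 CPM (1.33, SE 0.26, adjusted p = 0.000339). Its fraction difference shifted by 1.09 (SE 0.36, adjusted p = 0.0311) from Ctrl to NaAsO2, opposite in sign to the histone members. The highest value is the library with the H4 to H2B ratio of 3.64. Without the 3 libraries set apart the insoluble difference of SLBP was 0.79 (adjusted p = 3.46e-08) and the shift 0.58 (adjusted p = 0.000887), both under the fold limit, and its insoluble libraries of NaAsO2 and Ctrl still did not overlap.

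The 21 polyadenylated mRNAs of S-phase genes such as PCNA and the MCM helicase subunits were all tested. In the insoluble fraction 6 were called higher and 3 lower in Ctrl (11.8% and 10.7% of all genes), 1 and 3 after NaAsO2 (14.6% and 16%), 2 and 6 after RK-33 (15.5% and 15.2%), and 0 and 2 in Combo (10.0% and 13.1%). In the soluble fraction 12 of them were higher after NaAsO2 than in Ctrl by adjusted p alone, where 13.3% of all genes passed in either direction, and 1 was called, with a median of 0.44. As a check for nuclear RNA, 4 of 5 nuclear-retained RNAs were tested, with RN7SK at 0. In every treatment 2 were called higher and 1 lower in the insoluble fraction, with NEAT1 at 1.84 (SE 0.19) and MALAT1 at -1.07 (SE 0.20) in Ctrl. MALAT1 thus moved in the direction of the histone members, and its part in their result was not tested.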

How the data were processed

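The authors aligned reads from rRNA-depleted, directional libraries to GRCh38.p13 with STAR 2.7.2b, used SAMtools 1.2, and deposited raw counts of uniquely aligned fragments per gene, made with featureCounts 1.5.3 on exons and introns of GENCODE release 40 without strand (minimum intron overlap 25 bases). The deposited circRNA tables hold 0 members and were not used. No column belonged to another sample.

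Exon counts of all 24 libraries in 8 groups were fitted with edgeR 4.0.16 (R 4.3.3; quasi-likelihood test, TMM factors, genes that average 1 CPM or more), and printed CPM are TMM-scaled. Called means an adjusted p (Benjamini-Hochberg) below 0.05 together with a log2 fold change of 1 or more in size. The script was tested on simulated data. The study's methods name glmLRT, which was run as an alternative, as were DESeq2 1.42.0, other scalings, filters and left-out libraries. The intron fit and the removal of 3 libraries were chosen after seeing the data. The members and lists were chosen with earlier results of these data known. Per-library values were given for the 3 members of each class with the highest mean CPM or for a part of them, and for up to 3 called members with the smallest adjusted p per direction and comparison. Others were named after their values were seen. Sequence windows were compared with the whole genome, not only with annotated transcripts, and hairpins were read with GENCODE release 44. Tables and figures used Python 3.11.15, numpy 2.4.6, pandas 2.3.3 and matplotlib 3.10.9.

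Replicates are 3 repeats per condition, and the study describes them as 3 repeats of the experiment. The sources used here do not say whether they came from separate cultures, and p-values measure only the spread between these samples, which may be technical. Replicate numbers were checked as pairs: 2 of 12 fraction pairs and 4 of 24 treatment pairs had a correlation of deviations over 0.1, and Combo against NaAsO2 in the insoluble fraction was the 1 comparison in which all pairs did (0.511, 0.460 and 0.711). Fragments are not separate molecules once amplified, and depth limits members of about 1 CPM.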

Additional observations from a re-analysis of the deposited data

Results flagged for a closer look

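The fraction difference of 6 members differed between NaAsO2 and Ctrl by a test of the interaction (edgeR, adjusted p under 0.05 and at least 1 on the log2 scale), with a larger deficit in the pellet after NaAsO2 in each: -1.50 for H2BC4, -1.47 for H2AC14, -1.40 for H2BC11, -1.15 for H2AC20, -1.14 for H4C11 and -1.08 for H1-1. By the same test, 9.56% of all genes were called in either direction. Each estimate rests on 3 libraries per group, 1 of which, replicate 3 of the NaAsO2 insoluble fraction, stood apart in its H4 to H2B ratio. With the 3 libraries set apart left out, H2BC11 (-0.90), H2AC20 (-0.96) and H4C11 (-0.93) fell under the fold limit and the other 3 kept the call. H3C10, H2AC18, H3C2 and H1-2 were called as well, which made 7, where 8.41% of all genes were called. Of the 6, H4C11 and H2AC14 share 90.7% and 61.8% of their windows of 100 bases with other places in the genome, so their counts are uncertain. The call of H1-1 was lost to the fold limit with no filter on low counts (-0.99) and with a filter at 5 CPM (-0.98).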

How the results depend on the processing

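Of 355 alternative counts of called members, 308 stayed within 1.5 times the main count, and of 338 alternative values of named members, 316 kept their side of the threshold. Leaving out 1 library gave 35 to 38 members called between fractions in Ctrl, 38 to 40 after NaAsO2, 38 to 39 after RK-33 and 36 to 38 in Combo. For NaAsO2 against Ctrl in the insoluble fraction it gave 0 to 6 (0 without NaAsO2 insoluble replicate 3, 5 without replicate 1, 6 without replicate 2, and 2 without Ctrl insoluble replicate 1), and the H4C2 difference ranged from -0.02 (without that replicate 3, as without the 3 libraries set apart) to 2.25 (without replicate 1). For Combo against NaAsO2 in the insoluble fraction it gave 1 to 5 (1 without Combo insoluble replicate 2, 5 without replicate 3). For the fraction effect of NaAsO2 minus Ctrl it gave 2 to 9 (2 without Ctrl soluble replicate 1, Ctrl insoluble replicate 2 or NaAsO2 soluble replicate 3, and 3 without NaAsO2 soluble replicate 1). For that of Combo minus NaAsO2 it gave 0 to 2 (2 without NaAsO2 insoluble replicate 3 or Combo insoluble replicate 3, and 1 without Combo soluble replicate 1).

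With no fold limit, the members past the threshold were 4 and 9 for NaAsO2 against Ctrl in the soluble and insoluble fraction, 3 for RK-33 against Ctrl in the insoluble fraction, 5 for Combo against NaAsO2 and 2 for Combo against RK-33 in the soluble fraction, and 10 for the fraction effect of NaAsO2 minus Ctrl. NaAsO2 against Ctrl in the insoluble fraction, at 1 in the main fit, gave 2 with RLE factors, 2 with library size alone, 2 with glmLRT, 3 with DESeq2, 3 with no filter, 0 with only the groups compared and 0 without the 3 libraries set apart. Combo against NaAsO2 in the soluble fraction gave 2 with glmLRT and 2 with only the groups compared, and in the insoluble fraction 0 with only the groups compared. A filter at 5 CPM gave 0 in both fractions of Combo against NaAsO2 and of Combo against RK-33, because H2BC6, H4C4 and H4C14 were then not tested. The fraction effect of NaAsO2 minus Ctrl gave 3 with only the groups compared, and that of Combo minus NaAsO2 gave 1 with glmLRT, 1 with DESeq2, 2 with no filter and 2 without the 3 libraries set apart. Unless stated, the cause was not tested. Library size alone moved the median of all genes by -0.15 and -0.10 (log2) in NaAsO2 against Ctrl in the soluble and insoluble fraction.

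For intron counts, leaving out 1 library gave 1 to 2 for NaAsO2 against Ctrl in the insoluble fraction, 4 and 5 for RK-33 against Ctrl, 6 to 8 in each fraction for Combo against NaAsO2, and 1 to 2 and 2 to 3 for Combo against RK-33 in the soluble and insoluble fraction. Scaling by intron library size gave 1 for NaAsO2 against Ctrl and 2 for Combo against RK-33 in the soluble fraction, and scaling to exon counts gave 1 and 2 there and 4 for NaAsO2 against Ctrl in the insoluble fraction.

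With the replicate block, 3 members were called for Combo against NaAsO2 in the insoluble fraction, as without it, and the block gave 38 members between fractions in Ctrl, 40 after NaAsO2, 39 after RK-33 and 38 in Combo. It moved no count of called members by over 1.5 times, on exon or intron counts.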
